A study of Mus musculus with 2 samples.

Results

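The genes of the proteasome were followed in a table of DNase I signal over the coding spans of mouse genes, measured in M1 cells with and without IL-6. Genes were chosen by symbol alone. A gene was taken if its symbol begins with Psma, Psmb, Psmc, Psmd, Psme, Psmf or Psmg and a number, Psmb8 and Psmb9 were left out, and the transcript with the most windows stands for each gene. This gave 48 of the 22605 genes in the table. Of these, 46 encode subunits, assembly chaperones, activators or an inhibitor of the proteasome, and they are called proteasome genes here. The other 2 match by name only. Psmc3ip encodes a protein of meiotic recombination. Psme2b-ps is a pseudogene of an activator subunit, and it had 2 reads in each library.

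The proteasome degrades proteins that carry a ubiquitin tag, in the cytosol and in the nucleus. Its core particle is a barrel with alpha rings at the ends and beta rings inside, where some of the beta subunits carry the catalytic sites. The regulatory particle caps the barrel. Its base holds a ring of ATPases that unfolds substrates, and its lid removes the ubiquitin. Nearly all cells express these genes, and cells of the immune system also make immunoproteasome subunits that take the place of the usual catalytic ones.

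M1 is a mouse myeloid leukemia line that grows as progenitors and differentiates toward macrophages in IL-6. The labels name bone marrow as the source of the line and give no genetic difference between the groups. DHS-seq, in which nuclei are cut lightly with DNase I and the short fragments from open chromatin are sequenced, was done once on M1 cells without treatment and once on M1 cells kept in IL-6, which the labels put at 4 to 5 days, so each condition has 1 library. The study made the comparison to find open sites that change while the cells differentiate. Hence no difference below has a replicate check, and no p-value is given.

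Signal is the mean number of reads per 700-bp window over the windows that a coding span touches, on NCBIM37. A read counts as 1 in untreated cells and as 1.04 in IL-6-treated cells, the scaling in the deposited values, and this gives back the number of reads on each span. Ratios below are IL-6-treated to untreated with that scaling, log2 ratios have 0.5 reads added to each library, and intervals are exact 95% (Clopper-Pearson) intervals. The intervals cover counting error only, and reads without molecular identifiers are not independent molecules. A gene was compared if it had more than 21 reads in either library after scaling. This left 18472 genes, among them all 46 proteasome genes and Psmc3ip, while Psme2b-ps was under the limit. A gene is called lower or higher if it differed by at least 2-fold.

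Without IL-6 the spans of all 22605 genes held 9327942 reads, and with IL-6 they held 8704059, with windows shared by several genes counted for each. Of 10 myeloid marker genes 9 were listed, with 2.75 to 51.5 reads per window in untreated cells. The 4 T cell, 3 B cell, 3 erythroid and 3 epithelial and liver markers had 3 to 22.1 reads per window, and no marker was at 0. Their part in the results below was not tested. In cells measured in bulk, fewer cells with an open site and less signal per cell cannot be told apart.

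Directions depend on the scaling between the libraries. With the scaling of the table the median log2 ratio over all genes was 0.03. A scaling by the median ratio over 544 single windows with more than 21 reads in both libraries moved every log2 ratio up by 1.83. The falls of proteasome genes described below then became rises, in whole spans and in 5′ parts. Every other gene moved up by the same amount, so these rises are not particular to proteasome genes. The 544 windows were kept out of 4358 for having many reads, and genes with strong signal had the lowest ratios with the scaling of the table. The order of genes is the same under both, so the place of a gene among all genes is given as a percentile beside the main values.

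DNase I signal over the proteasome genes was lower in IL-6-treated cells with the scaling of the table, and higher with the scaling by single windows. With the scaling of the table, 15 of 46 proteasome genes were at least 2-fold lower, against 13.4% of all genes compared. Genes with more signal were more often lower. Proteasome genes had more signal in untreated cells, with a median of 17.6 reads per window against 9.33 in all genes compared. Shares at like signal are given below. None of the 46 was at least 2-fold higher, against 1.71% of all genes. The interval of the ratio lay below 1 in 35 proteasome genes, against 34.4% of all genes, and above 1 in 1 proteasome gene, Psma8, against 29% of all genes. In the other 10 genes the interval held 1. The median log2 ratio was -0.71, and single genes ran from -1.76 to 0.64. Over the 1317 windows of the 46 genes the reads went from 17674 to 10009, a ratio of 0.588 (interval 0.574 to 0.603). Over all genes of the table this ratio was 0.969 (0.968 to 0.970). Counting Psmc3ip as well, 16 of the 47 genes compared were at least 2-fold lower.

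**Figure D1:**
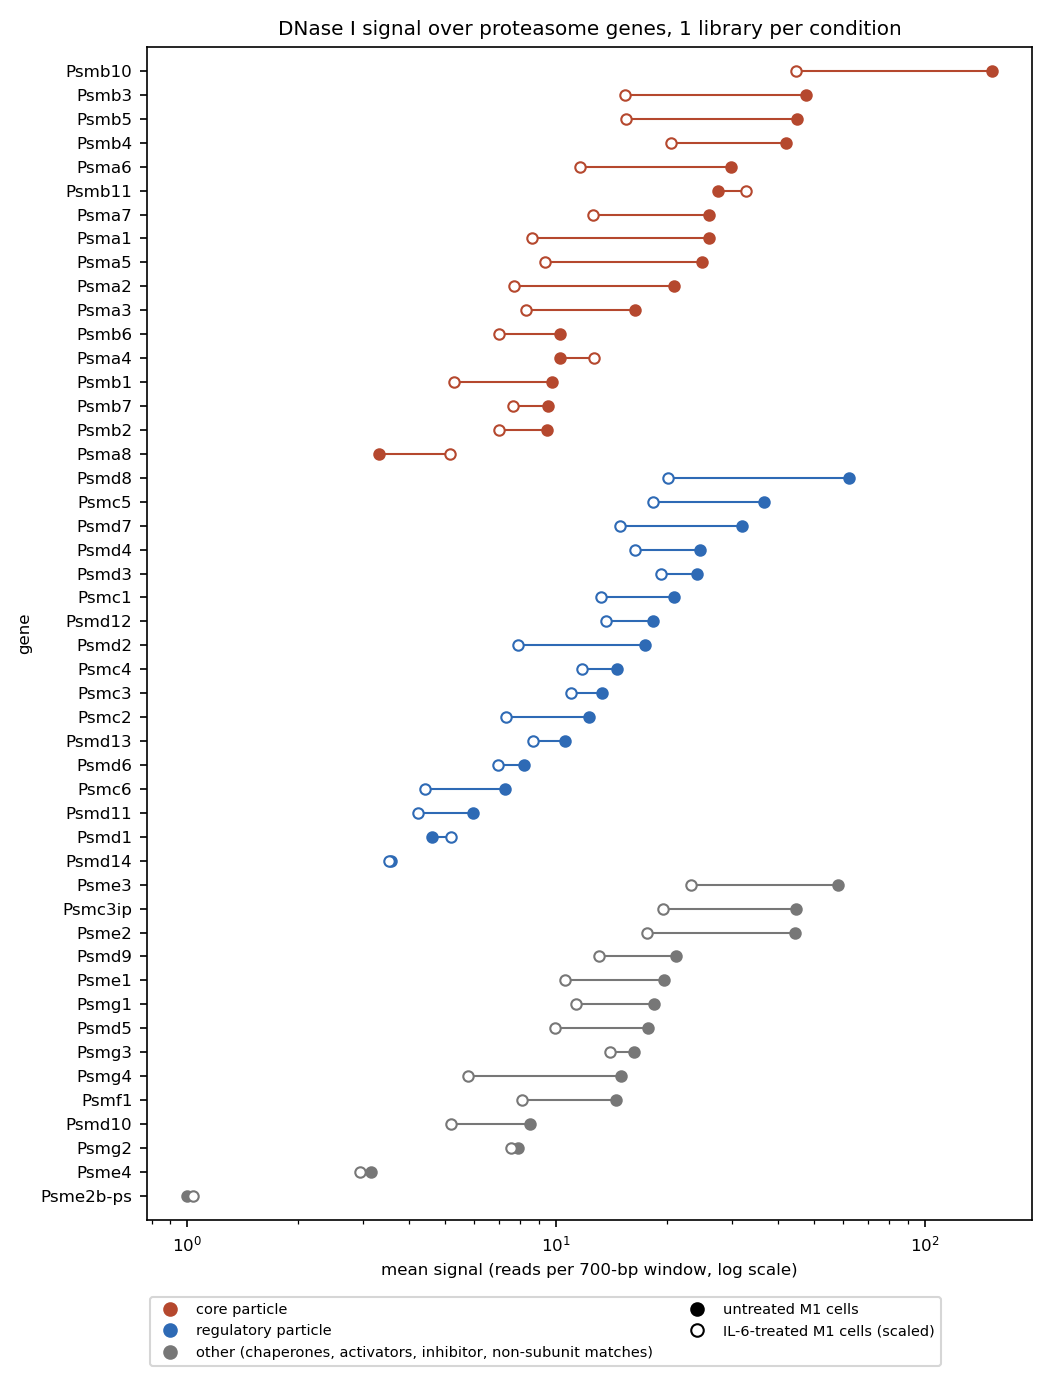
Mean DNase I signal of the 48 genes in reads per 700-bp window (x axis, log scale), with untreated cells as filled points and IL-6-treated cells as open points, 1 library each and the scaling of the table. Psmb10 has the most signal, and Psma8, Psma4, Psmb11, Psmd1 and Psme2b-ps are the genes whose open point lies to the right, while with the scaling by single windows all open points would lie to the right.

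The genes of the alpha rings, which gate the entry to the barrel, were lower in 5 of 8 cases, against 13.4% of all genes compared. Psma1 had 440 reads in untreated and 141 in IL-6-treated cells over 17 windows (chr7:121408001-121419900), a ratio of 0.333 (0.273 to 0.403). Its log2 ratio of -1.58 was at the 4.97 percentile of all genes compared. Psma2 went from 397 to 141 reads, with a log2 ratio of -1.44, over windows that also cover the neighboring gene Mrpl32, so part of these reads may belong to that gene. Psma5 went from 822 to 297 reads over 33 windows (chr3:108059701-108082800), with a log2 ratio of -1.41. The signal of Psma5 was uneven along the gene. Its mean of 24.9 reads per window had an SD between windows of 109 in untreated cells, and the mean of 9.34 had an SD of 25.5 after IL-6.

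Psma6 had the most reads of all 48 genes, 1457 in untreated and 546 in IL-6-treated cells, with a log2 ratio of -1.36. Its listed span, from the transcript Psma6-002 (chr12:56485101-56519400), begins far upstream of the other transcripts. The span shared with the transcript Psma6-001, of 28 windows, went from 336 to 191 reads, a ratio of 0.590 (0.491 to 0.707), so the rest of the reads came from the upstream stretch. Psma7 went from 260 to 121 reads (log2 ratio -1.05), again over windows that reach a neighbor, Ss18l1. Psma3 was just outside the limit, with 475 and 231 reads and a ratio of 0.505.

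Psma4 and Psma8 stood at the other end of the alpha genes. Psma4 had 92 and 110 reads, with a log2 ratio of 0.31 and an interval of the ratio that held 1 (0.932 to 1.66). Its start site lies 904 bp outside the listed windows, and so its promoter was not measured. Psma8, which encodes an alpha subunit known from male germ cells, had 265 reads in untreated and 397 in IL-6-treated cells over 80 windows. Its ratio of 1.56 (1.33 to 1.82) was at the 91.7 percentile. The signal of Psma8 was low in both libraries, with 3.31 and 5.15 reads per window.

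The beta genes were lower in 4 of 9 cases, against 13.4% of all genes compared. Psmb10, which encodes an immunoproteasome subunit that takes the place of the Psmb7 product, had the strongest signal of the 48 genes and the lowest log2 ratio. Its 4 windows (chr8:108459401-108462200) held 606 reads in untreated and 172 reads in IL-6-treated cells, which is 152 and 44.6 scaled reads per window. The ratio was 0.295 (0.247 to 0.350), and the log2 ratio of -1.76 was at the 3.16 percentile. Psmb3, a structural beta subunit, went from 711 to 222 reads over 15 windows (chr11:97564601-97575100), with a log2 ratio of -1.62. Psmb4, also structural, went from 168 to 79 reads over 4 windows. Its ratio of 0.488 was the one nearest the limit among the genes called lower, and the first gene outside it was Psmc5 with 0.501.

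The usual catalytic sites are on the products of Psmb5, Psmb6 and Psmb7, and the whole-span ratios of these genes were not alike. Psmb5, for the chymotrypsin-like site, went from 314 to 104 reads over 7 windows (chr14:55232101-55237000), with a ratio of 0.344 (0.273 to 0.431). Psmb7, for the trypsin-like site, went from 769 to 595 reads over 81 windows, with a ratio of 0.803 (0.721 to 0.895), and its windows also reach Nek6. The counting intervals of Psmb5 and Psmb7 do not overlap, but they compare whole spans of unlike length. The mean and SD of Psmb7 put its strongest window at 30 to 132 reads in untreated cells. After IL-6 they put it at 12.5 to 61.3 scaled reads, and these ranges overlap. Psmb6, for the caspase-like site, had 41 and 27 reads over 4 windows, and its interval held 1 (0.404 to 1.14). With so few reads the interval of Psmb6 overlaps those of both other genes.

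Psmb1 and Psmb2, both structural, had log2 ratios of -0.88 and -0.43. Psmb11, which encodes the beta subunit known from the cortex of the thymus, had 55 and 63 reads in its 2 windows (chr14:55244001-55245400), with a ratio of 1.19 (0.815 to 1.74). At 27.5 reads per window in untreated cells Psmb11 was at the 87.9 percentile of signal, and of the core genes with over 20 reads per window it was the one whose interval held 1.

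**Figure D2:**
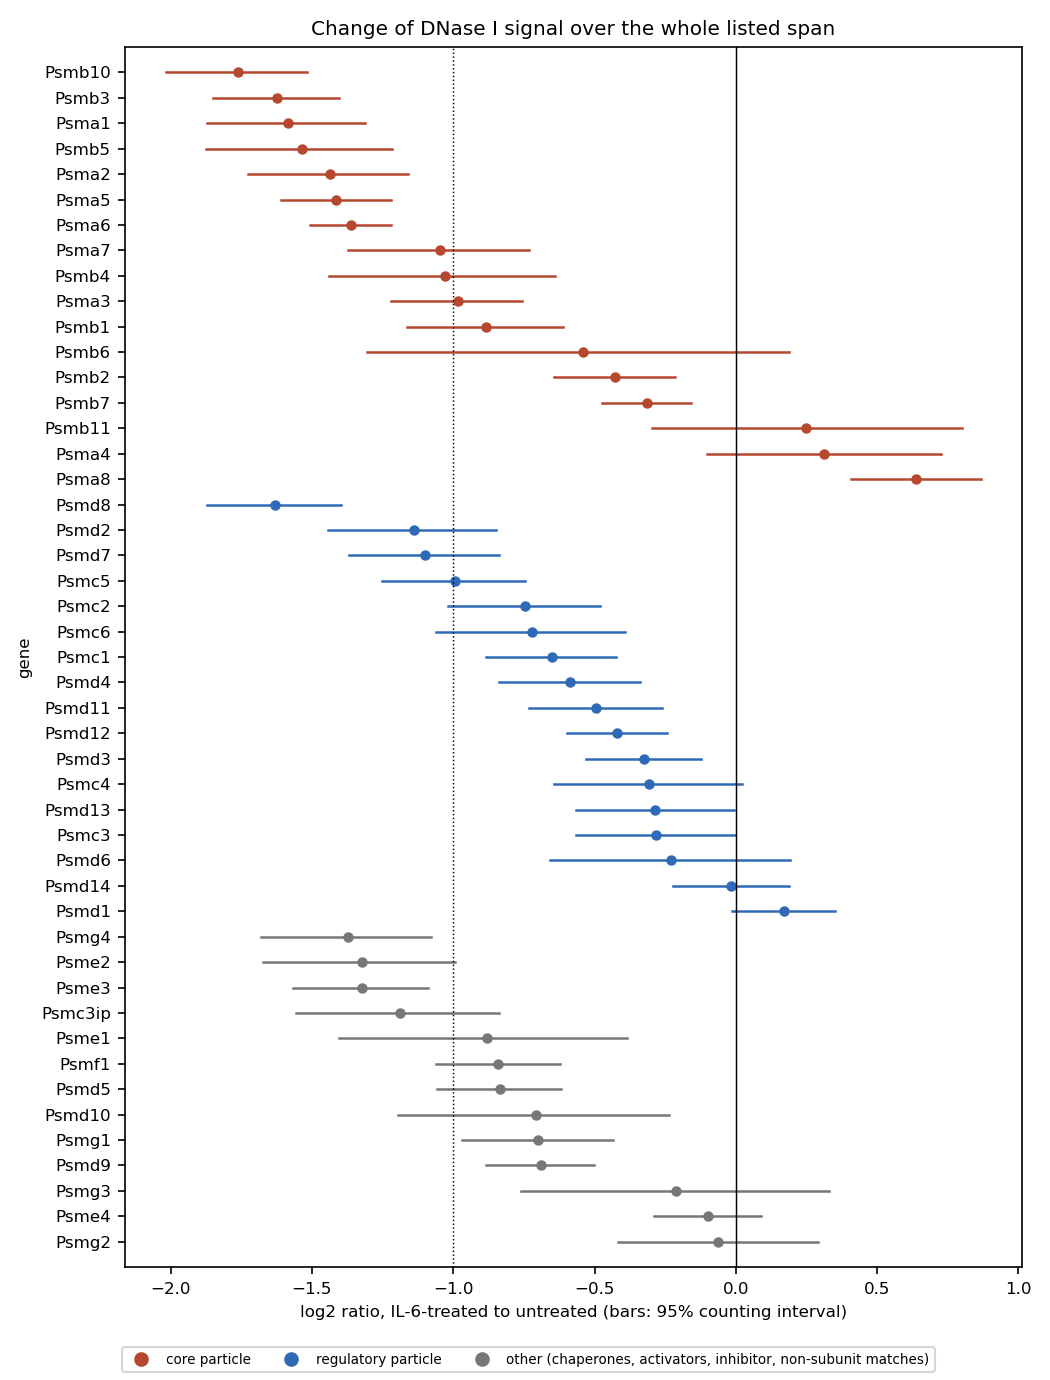
Log2 ratio of DNase I signal, IL-6-treated to untreated, over the whole listed span of the 47 genes compared (x axis), with 95% counting intervals as bars, 1 library per condition, and the 2-fold limit as a dotted line. Core genes reach from -1.76 to 0.64 and regulatory genes from -1.63 to 0.17 with the scaling of the table, and all points lie above 0 with the scaling by single windows.

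In the regulatory particle 3 of 17 genes were at least 2-fold lower, a share near the 13.4% of all genes. Psmd8, which encodes a lid subunit, had the strongest signal of this particle, with 62.1 reads per window in untreated and 20.04 in IL-6-treated cells. Its 10 windows (chr7:29959301-29966300) held 621 and 193 reads, and the ratio of 0.323 (0.273 to 0.380) was at the 4.44 percentile. Psmd2, for the large base subunit that docks ubiquitin carriers, went from 314 to 137 reads over 18 windows (chr16:20651401-20664000), with a log2 ratio of -1.14. Psmd7, for the lid subunit that pairs with the ubiquitin-removing enzyme, went from 383 to 172 reads over 12 windows, with a log2 ratio of -1.10.

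The ATPase ring of the base was lower as a whole, but none of its 6 genes reached 2-fold. Their log2 ratios ran from -0.995 in Psmc5 to -0.28 in Psmc3, with a median of -0.69. The interval lay below 1 in 5 of 6, against 34.4% of all genes. Psmc5 went from 402 to 194 reads over windows that also cover parts of Ftsj3 and Smarcd2. Psmc3 shares windows with Slc39a13. The other ATPase genes were Psmc2 (319 and 183 reads), Psmc6 (204 and 119), Psmc1 (416 and 255) and Psmc4 (175 and 136), and the interval of Psmc4 held 1 (0.640 to 1.02). The start sites of Psmc4, Psmc2 and Psmc3 lie 20, 800 and 89 bp outside their windows. The ratio of the summed reads of the ATPase genes was 0.637 (0.590 to 0.687).

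Among the other base and lid genes the ubiquitin receptor gene Psmd4 had 343 and 220 reads, with a log2 ratio of -0.59. The lid genes Psmd11, Psmd12, Psmd3 and Psmd13 had log2 ratios of -0.50, -0.42, -0.33 and -0.29, each with an interval below 1. The windows of Psmd13 also reach Sirt3. Psmd6 had 106 and 87 reads and an interval that held 1 (0.634 to 1.14). Psmd1, for the second large base subunit, had 480 and 520 reads over 104 windows, and its ratio of 1.12 (0.992 to 1.28) was the highest of the regulatory particle. Psmd1 shares windows with Htr2b, so part of these reads may belong to that gene. The start sites of Psmd6, Psmd1 and Psmd3 lie 98, 107 and 33 bp outside their windows.

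Psmd14 encodes the enzyme of the lid that removes ubiquitin, and its listed span showed almost no difference, with 400 reads in untreated and 381 in IL-6-treated cells over 112 windows (chr2:61560101-61638500). The ratio was 0.989 (0.857 to 1.14). That span begins 10350 bp from the start site. The transcript Psmd14-203 covers the start in 13 windows that the longer span lacks, and these went from 197 to 72 reads, a ratio of 0.379 (0.286 to 0.499). For Psmd14 the choice of transcript therefore decided whether the gene was called lower.

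Over whole spans, the core genes as a group had lower ratios than the regulatory genes. Of 17 core genes 9 were at least 2-fold lower, with a median log2 ratio of -1.03, and of 17 regulatory genes 3 were, with a median of -0.50, beside 13.4% of all genes. The core median gene was at the 12.8 percentile of all genes (Psmb4), and the regulatory median gene was at the 25.8 percentile (Psmd11). Summed over genes, the core went from 7627 to 3724 reads, and its ratio was 0.507 (0.487 to 0.527). The regulatory particle went from 6111 to 4042 reads, and its ratio was 0.687 (0.660 to 0.715). These counting intervals do not overlap. In the 4 core and 8 regulatory genes whose first stretch could be counted apart (5′ parts, below), the summed ratios of that stretch had intervals that overlapped. Those 4 core genes hold no beta gene, and Psma4 and Psma8 among them had ratios of that stretch above 1. The alpha and beta genes had summed ratios of 0.489 (0.464 to 0.516) and 0.528 (0.498 to 0.560), and the base and lid had 0.701 (0.662 to 0.743) and 0.674 (0.637 to 0.712). Within each particle the intervals of these subgroups overlapped.

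Single genes of both particles overlapped widely, and genes are not replicates of a condition. Several other measures moved with the difference between the particles. The core genes had more signal in untreated cells, with a median of 24.9 reads per window against 14.6 in the regulatory genes and 9.33 in all genes. The start site of the listed transcript lay inside the windows in 14 of 17 core genes and in 10 of 17 regulatory genes. Among genes with the start site inside, the median log2 ratio was -1.04 in the core and -0.69 in the regulatory particle. Among genes with 20 to 40 reads per window in untreated cells, it was -1.39 in 6 core genes and -0.65 in 5 regulatory genes. At 10 to 20 reads per window it was -0.54 in 3 core and -0.36 in 6 regulatory genes, and under 10 it was -0.37 in 4 core and -0.23 in 5 regulatory genes. At 40 reads or more the order was the opposite, with -1.58 in 4 core genes and -1.63 in the 1 regulatory gene, Psmd8. The part of signal strength and start sites in the difference was not tested further. Without Psma6 the core ratio was 0.535 (0.512 to 0.558), and without the tissue-restricted genes and the immune subunit gene (Psma8, Psmb11 and Psmb10) it was 0.479.

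The chaperones, activators and the inhibitor that work on the proteasome included 3 genes at least 2-fold lower. These were 1 of 4 core assembly chaperone genes and 2 of 4 activator genes, against 13.4% of all genes compared. None of the 3 base assembly chaperone genes was, nor was the inhibitor gene. Psmg4, for a chaperone of core assembly, went from 345 to 128 reads over 23 windows, with a log2 ratio of -1.37. Its partners differed: Psmg1 had 312 and 185 reads (log2 ratio -0.70), while Psmg2 with 142 and 131 reads and Psmg3 with 65 and 54 reads had intervals that held 1. The start sites of Psmg2 and Psmg3 lie 48 and 397 bp outside their windows, while those of Psmg4 and Psmg1 lie inside. The chaperones of base assembly had similar values, with log2 ratios of -0.84 in Psmd5, -0.71 in Psmd10 and -0.69 in Psmd9, each with an interval below 1. The windows of Psmd10 are shared with Atg4a.

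Activators open the barrel in place of the regulatory particle. Psme2, for a subunit of the interferon-inducible activator, went from 266 to 102 reads over 6 windows, with a log2 ratio of -1.32. Psme1, for the other subunit of that activator, had 98 and 51 reads (log2 ratio -0.88), and it shares windows with Fam158a. Psme3, for the nuclear activator, went from 523 to 201 reads over 9 windows (chr11:101177301-101183600), which is 58.1 and 23.2 scaled reads per window, with a log2 ratio of -1.32. Psme4, for the large single-chain activator, had 483 and 434 reads over 153 windows, the longest span of the 48 genes and the one with the lowest signal among those compared, 3.16 and 2.94 reads per window. Its ratio was 0.933 (0.818 to 1.06). The start sites of Psme4 and Psme1 lie 175 and 204 bp outside their windows. Psmf1, the inhibitor gene, went from 493 to 265 reads, with a log2 ratio of -0.84. Psmc3ip, which is not a proteasome gene, went from 223 to 94 reads over windows shared with Mlx.

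In the genes where a span could be split, the difference lay mostly in the stretch toward the 5′ end. Where a shorter listed transcript of the same or an overlapping gene ends inside a span on a shared window boundary, the difference between spans gives the reads of the first stretch (the 5′ part) and of the rest. This was possible, with over 21 reads in both, for 19 proteasome genes. The length of the 5′ part depends on where that boundary falls. It was 2 of 18 windows in Psmd2, but 27 of 35 in Psmd12 and 72 of 80 in Psma8. In 6 of the 19 genes the start site of the listed transcript lay outside the windows. The 5′ part was at least 2-fold lower in 9 of 19, against 24.8% of all 6155 genes with both parts. The rest of the span was at least 2-fold lower in 0 of 19, against 4.11%. The 5′ part had the lower log2 ratio of the pair in 18 of 19 genes, against 69.4% of all genes, and the exception was Psma8. Summed, the 5′ parts went from 5401 to 2577 reads over 291 windows (ratio 0.495, interval 0.472 to 0.519). The rests held 2464 and 2406 reads over 425 windows (1.01, 0.958 to 1.07). By particle, the summed 5′ parts had ratios of 0.507 (0.467 to 0.550) in 4 core genes and 0.517 (0.476 to 0.561) in 8 regulatory genes. These intervals overlap. The 4 core genes were all alpha genes, and their 5′ parts were unlike. The ratios were 0.289 in Psma3 and 0.329 in Psma6, but 1.12 in Psma4, whose interval held 1, and 1.58 in Psma8. In the 8 regulatory genes they ran from 0.287 to 0.758. The summed core value thus joins unlike genes and stands for no beta gene. The rests of the same 4 core and 8 regulatory genes had ratios of 0.835 (0.733 to 0.951) and 1.06 (0.981 to 1.15), and these intervals do not overlap. With the scaling by single windows both parts would be higher, and the order within a gene would be the same.

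Psmd2 and Psma3 had the lowest 5′ parts. The first 2 windows of Psmd2 (chr16:20651401-20652800) went from 224 to 62 reads, a ratio of 0.287 (0.213 to 0.382), while its other 16 windows had 90 and 75 reads (0.865, 0.628 to 1.19). The first 7 windows of Psma3 went from 352 to 98 reads, and the other 22 had 123 and 133. In these genes the rest of the span had an interval that held 1. Psmc5 went from 332 to 103 reads in the first 7 windows and from 70 to 91 in the other 4. Psme3 went from 469 to 152 reads in the first 6 windows and from 54 to 49 in the other 3. Psmc5, Psma3, Psmd11, Psmg1, Psmd5 and Psmf1 had 5′ parts that were at least 2-fold lower although the whole span of each was not.

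Psmd1 and Psme4, whose whole spans had intervals that held 1, moved in opposite directions along the gene. The first 16 windows of Psmd1 went from 137 to 100 reads (0.758, 0.580 to 0.988), and its other 88 windows from 343 to 420 (1.27, 1.10 to 1.47). The first 47 windows of Psme4 went from 250 to 161 reads (0.669, 0.545 to 0.818), and the other 106 from 233 to 273 (1.22, 1.02 to 1.46). Psmg2 did the same, with 74 and 36 reads in its first 3 windows and 68 and 95 in the other 15. In Psma6 both parts had intervals below 1, with 1121 and 355 reads in the 21 upstream windows.

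**Figure D3:**
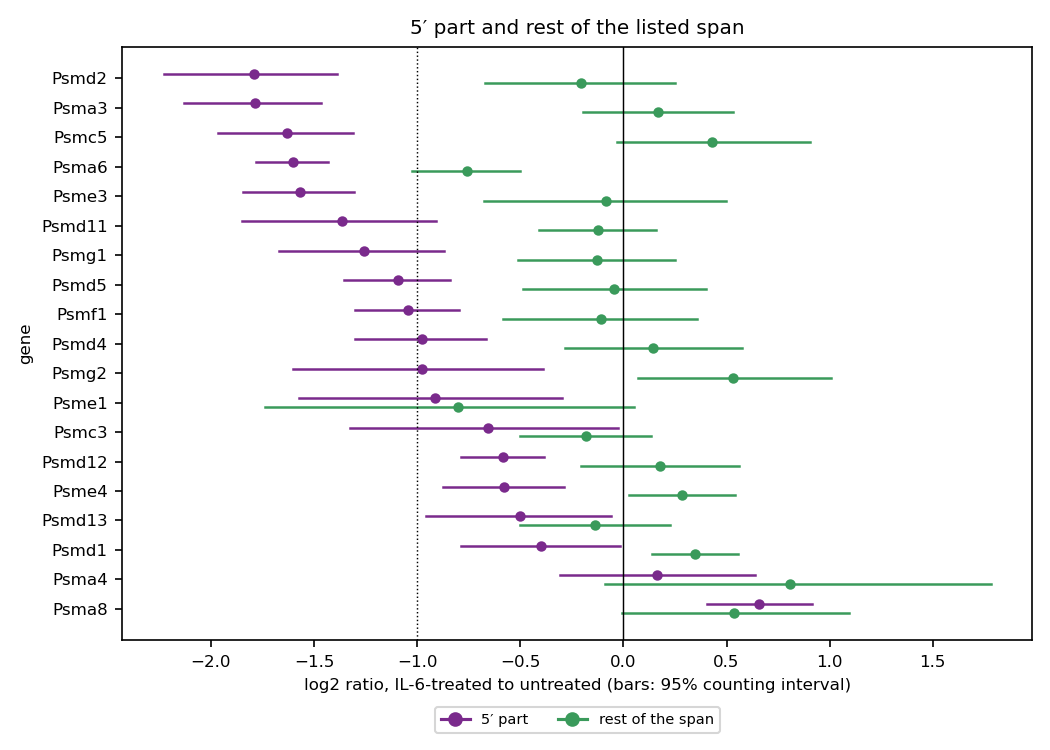
Log2 ratio, IL-6-treated to untreated, of the 5′ part (purple) and of the rest of the listed span (green) in the 19 proteasome genes with over 21 reads in both, with 95% counting intervals as bars and 1 library per condition. The 5′ part lies to the left in 18 of 19 genes with both scalings, and it lies below 0 in 17 of 19 genes with the scaling of the table only.

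Genes were also divided by their start sites. The start site of the listed transcript lay inside the windows in 32 proteasome genes, of which 14 were at least 2-fold lower (all genes: 1956 of 10271), with a median log2 ratio of -0.93. It lay outside in 14 genes, of which 1, Psmb10, was at least 2-fold lower (all genes: 521 of 8201, a similar share), with a median of -0.26. The start site of Psmb10 is 92 bp from its nearest window. Over all genes compared the medians were -0.12 for 10271 genes with the start site inside and 0.13 for 8201 genes with it outside. In the regulatory particle the interval lay below 1 in all 10 genes with the start site inside (all genes: 4563 of 10271). With the start site outside it lay below 1 in 3 of 7 genes (all genes: 1787 of 8201), and in the other 4 it held 1.

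The strongest window was lower in most of the proteasome genes. The mean and SD of a span limit the number of reads that its strongest window can hold, and the limits of both libraries did not overlap, with the lower values after IL-6, in 33 of 46 proteasome genes, against 27.7% of all 18318 genes with over 1 window. The opposite was found in 1 gene, Psmb11, against 6.59%, but there the strongest window held 34 reads in untreated cells and 35.3 scaled reads after IL-6, which is the same number of reads before scaling. In Psma5 the strongest window held 486 to 630 reads in untreated cells and 77.9 to 151 scaled reads after IL-6, at least 3.23-fold lower. In Psma1 it held 255 to 333 and 32.2 to 64.4, at least 3.96-fold lower. In Psmb10 it held 328 to 434 and 66.4 to 96.5, and in Psmb3 310 to 464 and 47.8 to 98.6. At least 59.1% of all reads of Psma5 and 79.3% of those of Psme2 were thus in 1 window in untreated cells. With the scaling by single windows the count of 33 became 1, which was Psma1.

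**Figure D4:**
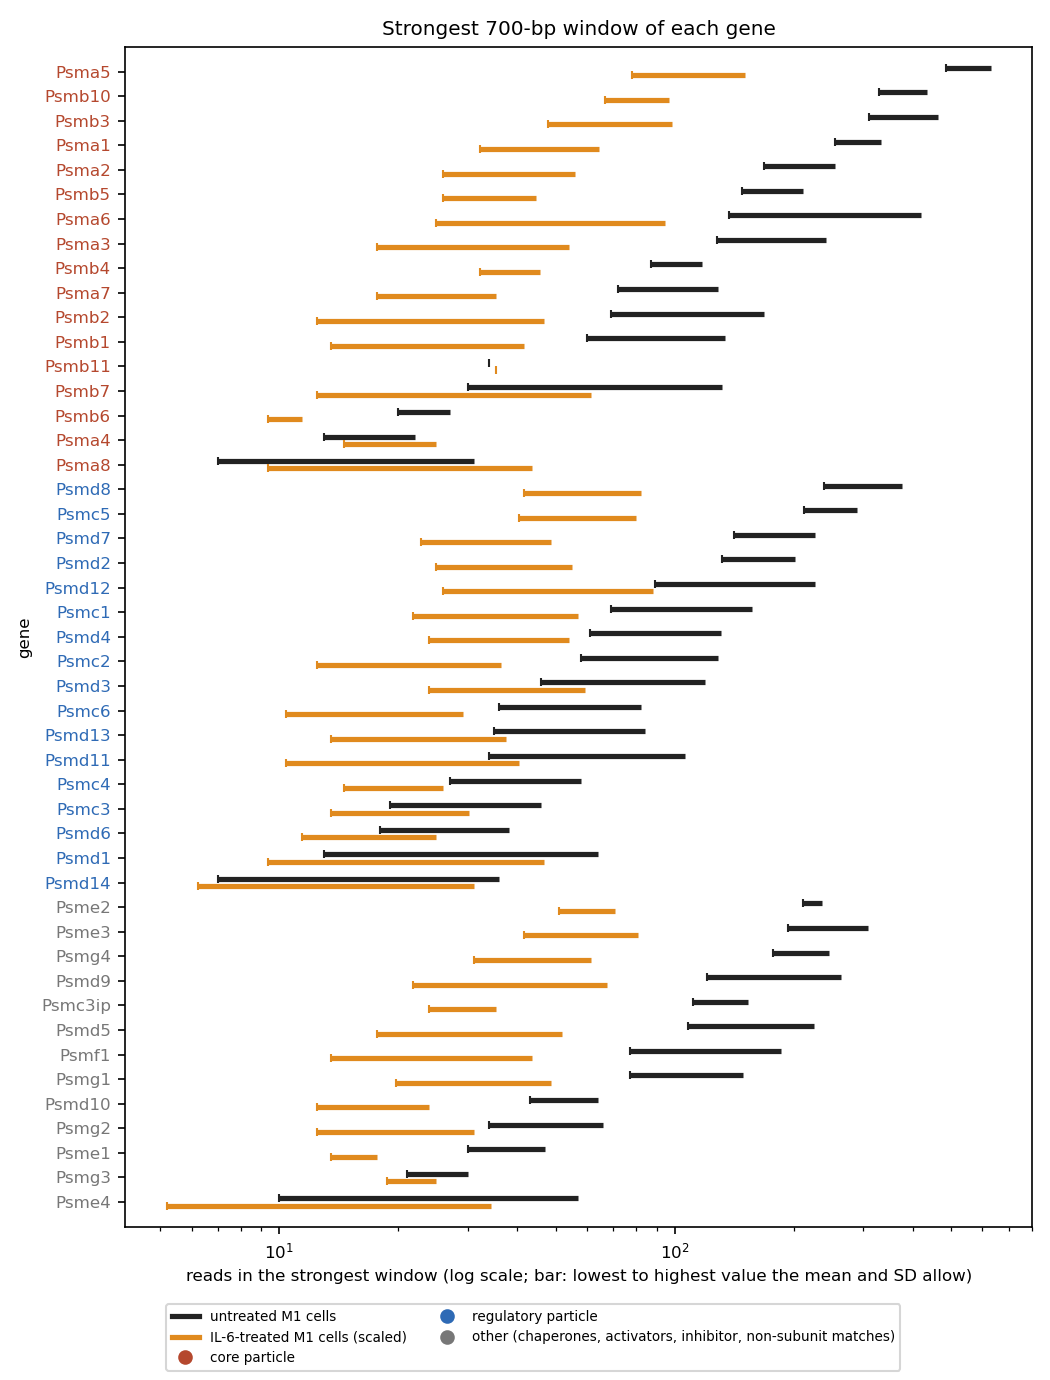
Lowest and highest number of reads that the strongest 700-bp window of each gene can hold (bars, x axis in reads on a log scale), from the mean and SD of each span, in untreated (black) and IL-6-treated cells (orange, scaling of the table), 1 library each. The bars do not overlap in 33 proteasome genes with the lower values after IL-6, a count that becomes 1 with the scaling by single windows.

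The windows other than the strongest are given for 4 genes, chosen after their values were seen. In Psma5 the other 32 windows had 6 to 10.5 reads per window in untreated and 4.93 to 7.20 scaled reads after IL-6. In Psma1 they had 6.69 to 11.6 and 5.13 to 7.14. In Psma5 and Psma1 these ranges overlap. In Psmb10 and Psmd8 the other windows were also lower, with 57.3 to 92.7 and 27.3 to 37.4 reads per window in Psmb10, and 27.3 to 42.6 and 13.2 to 17.6 in Psmd8.

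The log2 ratio fell with the strength of the signal, in the proteasome genes and in all genes. Over the 46 proteasome genes the correlation between the log2 ratio and the log2 mean signal of both libraries was r = -0.64 (rho = -0.62), and over all 18472 genes it was r = -0.62 (rho = -0.54). This is a description across genes, which share the libraries and the scaling. All 7 proteasome genes with at least 40 reads per window in untreated cells were at least 2-fold lower, as were 89.8% of all such genes, and the medians were -1.54 and -1.61. At 20 to 40 reads per window the medians were -1.02 in 12 proteasome genes and -0.82 in all genes. At 10 to 20 they were -0.70 in 15 proteasome genes and -0.15 in all genes, and under 10 they were -0.27 in 12 and 0.30. Strong proteasome genes were therefore close to other strong genes, and the gap to other genes was wider at low signal.

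**Figure D5:**
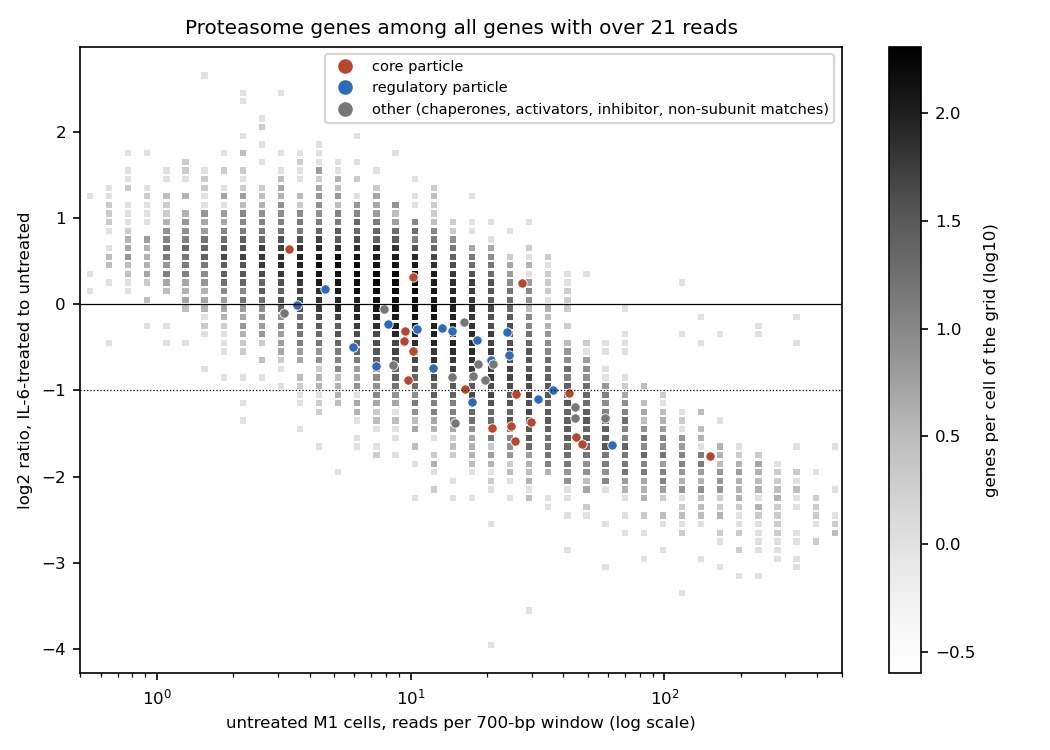
Log2 ratio, IL-6-treated to untreated (y axis, scaling of the table), against reads per 700-bp window in untreated cells (x axis, log scale) for the 47 genes compared (colored points) and for all 18472 genes (grey cells, darker for more genes), 1 library per condition. The points go down to the right as the grey cells do, and all points would be 1.83 higher, and above 0, with the scaling by single windows.

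The promoters of the genes were looked up because the difference lay mostly in the 5′ parts of the genes that could be split. RefSeq (GRCm38.p6) promoters of 300 bases, from 250 before to 50 after the start, were found by symbol for 39 of the 48 genes, with 42 promoters, and each matched NCBIM37 at 1 place. The ETS motif CCGGAAG, searched on both strands, was in 10 of 15 regulatory promoters (66.7%) and in 1 of 14 core promoters (7.14%), against 8.86% of all 32851 promoters. The 15 regulatory promoters come from 14 genes, and both promoters of Psmc2 hold the motif. Among promoters of at least 60% GC it was in 6 of 8 regulatory promoters, in 1 of 3 core promoters and in 16.6% of all. The letters ATTGG, the reverse of the CCAAT box, were in 7 of 14 core promoters and 4 of 15 regulatory ones, against 37.4% of all. The antioxidant response element TGACNNNGC, known to be bound by Nfe2l1 and Nfe2l2, was in 6 of the 42 promoters (14.3%), against 12.4% of all. GGGCGG, bound by Sp1, was in 23 of 42 (54.8%), against 35.7%, but among promoters of at least 60% GC it was in 64.7%, against 80.6% of all such promoters. The palindromic motif of NRF1, a factor of respiration genes and not Nfe2l1, was in 2 of 42 (4.76%), against 0.971%. Each motif was counted alone, also where it shares bases with another, and a match is a description of the letters and not a bound site. The median GC content was 58.2% in these promoters, 60.3% in regulatory, 55.7% in core and 52.7% in all.

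The 250 bases before the start are shown for 3 regulatory genes with the ETS motif and 2 core genes with a CCAAT box, all with the start site inside the windows that were measured and with 98 to 250 of the bases shown inside them. Capitals mark the ETS motif, the CCAAT box or the antioxidant response element on either strand, the sequences are from RefSeq, 5′ to 3′ on the strand of the gene, and the positions are those of the exact match on NCBIM37.
Psmd2, chr16:20651475-20651724, plus strand: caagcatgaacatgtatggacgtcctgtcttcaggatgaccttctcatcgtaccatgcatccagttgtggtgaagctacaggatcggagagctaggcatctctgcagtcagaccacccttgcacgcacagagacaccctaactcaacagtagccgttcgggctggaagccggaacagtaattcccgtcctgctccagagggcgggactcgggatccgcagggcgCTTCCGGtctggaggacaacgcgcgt
Psmd11, chr11:80241867-80242116, plus strand: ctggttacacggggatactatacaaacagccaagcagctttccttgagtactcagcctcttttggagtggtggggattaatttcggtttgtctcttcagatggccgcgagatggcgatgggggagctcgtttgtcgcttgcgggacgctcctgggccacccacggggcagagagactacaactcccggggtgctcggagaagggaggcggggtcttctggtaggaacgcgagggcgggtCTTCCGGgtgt
Psmc6, chr14:45949249-45949498, plus strand: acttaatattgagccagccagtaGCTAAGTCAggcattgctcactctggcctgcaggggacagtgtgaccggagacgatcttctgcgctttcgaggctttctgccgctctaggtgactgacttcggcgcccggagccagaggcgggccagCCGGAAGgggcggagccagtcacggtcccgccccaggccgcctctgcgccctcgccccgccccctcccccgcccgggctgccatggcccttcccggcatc
Psma1, chr7:121419631-121419880, minus strand: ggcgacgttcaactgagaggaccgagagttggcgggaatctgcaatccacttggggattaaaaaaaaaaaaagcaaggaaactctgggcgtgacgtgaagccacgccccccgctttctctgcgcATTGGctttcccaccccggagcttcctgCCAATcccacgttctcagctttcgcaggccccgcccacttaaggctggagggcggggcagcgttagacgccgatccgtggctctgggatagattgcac
Psma3, chr12:72075360-72075609, plus strand: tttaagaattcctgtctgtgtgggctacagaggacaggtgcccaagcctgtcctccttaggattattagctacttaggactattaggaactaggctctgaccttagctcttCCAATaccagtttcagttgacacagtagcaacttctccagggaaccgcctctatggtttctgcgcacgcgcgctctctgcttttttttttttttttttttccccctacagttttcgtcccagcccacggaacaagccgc
In Psmd2 and Psmd11 the reverse of the ETS motif is near the start, in the stretch whose 5′ parts went from 224 to 62 reads and from 145 to 54 reads. Other regulatory genes with a 5′ part and a promoter were mixed. Psmd4, Psmd12 and Psmd13 hold the motif, with 5′ ratios of 0.507, 0.666 and 0.705. Psmc5 and Psmd1 lack it, with 5′ ratios of 0.322 and 0.758. Psmd8, with the lowest whole-span ratio of this particle, lacks it too. Whether the motif goes with the difference was not tested. Psma1 has the CCAAT box once on each strand. Psmc6 holds both an ETS motif and an antioxidant response element, and its whole span went from 204 to 119 reads. Only the last 98 of the bases shown for Psmc6 were in its windows. Its antioxidant response element was therefore not measured, and its ETS motif lies across the edge of the windows. For Psma3 only the last 109 bases were in the windows, and the marked CCAAT box lies before them.

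Other genes of the ubiquitin and proteasome pathway, from a list written with earlier results known, also had mostly ratios below 1. Of 30 listed genes 29 were found, 7 were 2-fold lower or more and 0 were 2-fold higher or more, against 13.4% and 1.71% of all genes, and the median log2 ratio was -0.47. The interval lay below 1 in 22 and above 1 in 0, against 34.4% and 29% of all genes. Among the lowest were Vcp, the ATPase that extracts ubiquitin-tagged proteins (880 and 236 reads, log2 ratio -1.84), and the ubiquitin gene Rps27a (216 and 65, -1.67). The highest were Ufd1l, a partner of Vcp (226 and 231 reads), Uba1, the main ubiquitin-activating enzyme (71 and 70), and Txnl1 (142 and 134), each with an interval that held 1. On the log2 scale the values of these genes would be 1.83 higher with the scaling by single windows, which leaves only Vcp below 0.

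Pomp, the chaperone that matures the core, had more reads than any of the 48 genes, 2255 in untreated and 1042 in IL-6-treated cells, a ratio of 0.480 (0.445 to 0.516). The immunoproteasome genes Psmb9 and Psmb8 went from 237 to 107 reads (log2 ratio -1.09) and from 138 to 71 reads (-0.90). All 3 immunoproteasome genes thus had ratios below 1 with the scaling of the table, lowest in Psmb10, and above 1 with that by single windows. Nfe2l1, the transcription factor that drives proteasome genes when the proteasome is inhibited, had 218 and 164 reads (log2 ratio -0.36), and its relative Nfe2l2 had 811 and 442 reads (-0.82).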

How the data were processed

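DNase I hypersensitivity was measured in M1 cells without and with IL-6, 1 library each. The authors digested nuclei with DNase I, sequenced short fragments, aligned the reads with BWA to NCBIM37 and used Seqmonk for the summary. The deposited signal is the mean and SD of reads over the 700-bp windows of each coding span, 55432 in all. Multiplying by the number of windows gave whole reads in 100% of the spans (within 0.05), at a worth of 1 and 1.03816 per read. The factor 1.03816 is not explained in the sources used here. Samples were grouped by the label for IL-6 treatment. Counting intervals (Clopper-Pearson) give the precision at each gene's depth.

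The genes and lists were chosen with earlier results of these data known. Named genes are the lowest and highest of each particle, all genes at least 2-fold lower, the catalytic, tissue-restricted, activator, inhibitor and chaperone genes, and the lowest and highest of the pathway list, of which 1 gene is not reported here. The 5′ parts and strongest windows were added after the data were seen. Recovery was tested on simulated data for the comparison of IL-6-treated with untreated cells. Reads came back in all 55390 spans (22575 genes). For 194 of 200 genes changed by a known fold the interval held that fold. This checked the calculation only, because the intervals cover counting error and nothing else. The simulation did not test duplicate reads, variation between replicates or the choice of scaling. Alternatives covered the scaling, transcript, read limit, reads added, fold and gene sets. No test across libraries was made. Python 3.11.15, numpy 2.4.6, pandas 2.3.3, scipy 1.17.1 and matplotlib 3.10.9 were used.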

Additional observations from a re-analysis of the deposited data

How the results depend on the processing

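With no scaling, the total over all genes or the median ratio over genes, the counts, ratios and medians of both particles kept their direction, and each of the 46 proteasome genes stayed within its counting interval. The scaling by the median ratio over single windows (a factor of 3.68, chosen after seeing the data) turned them. It left 0 genes lower and 25 higher by 2-fold or more, core and regulatory ratios of 1.80 and 2.43, median log2 ratios of 0.80 and 1.33, 0 genes with a lower 5′ part and 1 with a lower strongest window. The genes called lower then had log2 ratios of 0.24 (Psma1), 0.39 (Psma2), 0.41 (Psma5), 0.46 (Psma6), 0.78 (Psma7), 0.066 (Psmb10), 0.20 (Psmb3), 0.80 (Psmb4), 0.29 (Psmb5), 0.69 (Psmd2), 0.73 (Psmd7), 0.20 (Psmd8), 0.50 (Psme2), 0.50 (Psme3) and 0.45 (Psmg4). This follows from the factor itself, and no replicate shows which scaling is nearer to the cells. At a fold of 1.5, 28 genes were lower and 1 higher, and 14 of 19 genes had a lower 5′ part. No share over all genes is given for the counts in this section, so they cannot be set against other genes. The transcript with the fewest windows gave 0.481 for the core and 0.589 for the regulatory particle, with 19 genes lower. It moved 15 of the 46 genes, and the sign turned in Psmc5 (0.43), Psmd4 (0.15), Psmd3 (0.06), Psmg2 (0.53) and Psmd1 (-0.40). Without Psma8, Psmb10 and Psmb11 the core ratio was 0.479, and without Psma6 (chosen after seeing the data) it was 0.535. With 5 reads added, no read limit or a limit of 50 reads, no count changed by over 1.5 times and no ratio left its counting interval. No paired analysis was possible because each group has 1 library. Reads on promoters outside the coding spans are not in these values, and genes with few reads, such as Psmb6, allow only wide intervals.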
